A study of Mus musculus with 30 samples.

Results

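Nmnat2 and Tunar are a pair of neuronal genes that were followed across 15 adult mouse tissues, each by 1 oligonucleotide probe out of the 25030 probes of the authors' table. They were chosen by the excess of cerebellum over the mean of the other 14 tissues. Of the 143 tested probes with a gene symbol whose cerebellum arrays were both above every other array, they had the largest excess, 6.08 log2 units for Nmnat2 and 5.67 for Tunar. The next, outside the choice, was Sphkap with 5.64. Their cerebellum levels are therefore given here as a description and were not tested. The comparisons that were tested for the pair set the brain cortex, the eyes and each of the other 12 tissues against one another. The cerebellum arrays have no weight in these differences and enter only the pooled spread of the model. The weights of the comparisons sum to 0 over those 14 tissues, so the mean of the 14 that entered the choice cancels. The choice also required every array of the 14 to lie below cerebellum, so these tests are not wholly independent of it. Cerebellum was tested only for other genes.

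The tissues came from male C57BL/6 mice, 28 weeks old per the labels, with no treatment, and each tissue was measured on 2 arrays. Tissue RNA was labelled with Cy3 and hybridised together with a Cy5-labelled reference, which combined a commercial universal mouse RNA made from cell lines with RNA of 129ES embryonic stem (ES) cells. The study's methods name another age and another ES cell line, and which holds is not known. The series description names 1 replication for bone and fat although 2 arrays of each are labelled, so what the spread between those arrays covers is uncertain. The p-values measure the spread between the arrays of a tissue. The 12 tissues outside brain and eye were bone, fat, skin, muscle, heart, lung, liver, kidney, bladder, stomach and both the small and the large intestine, called non-neural tissues below although they contain nerves. In whole tissue, fewer cells of a type and less RNA per cell cannot be told apart.

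Nmnat2 encodes nicotinamide mononucleotide adenylyltransferase 2, one of the enzymes that make NAD from nicotinamide mononucleotide and ATP. In neurons the protein is short-lived and is carried along axons, and its loss starts the axon degeneration program that runs through SARM1. Tunar is a conserved long noncoding RNA, also known as Tuna, that is best known from ES cells and the nervous system. In ES cells it was described to bind the RNA-binding proteins PTBP1, hnRNP-K and nucleolin.

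In the reference gene table (GRCm38.p6) Nmnat2 lies on chromosome 1 at 152954781-153119266 as a protein-coding gene, and Tunar on chromosome 12 at 105336594-105383932 as a lncRNA. The study's probe lists name the Tunar probe by an older symbol, 2810011L19Rik. The sequences that were hybridised are shown because every level below rests on them. The Tunar probe is given whole and the Nmnat2 probe by its last 30 bases, all in lower case because no base was singled out.
Tunar probe: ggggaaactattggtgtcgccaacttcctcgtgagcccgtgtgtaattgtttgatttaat
Nmnat2 probe, last 30 bases: gagttctgttgctaggatagtcgtgggcaa
Each probe is 60 bases long. The Nmnat2 probe has 38.3% G and C and the Tunar probe 45.0%, beside a median of 43.3% over 42006 probes. No other probe of the array shared a run of 20 bases with either of them on either strand. Neither probe has an open reading frame over its whole length, since a stop codon stands in each of the 3 frames. Where on the transcripts the probes lie was not analysed here.

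All levels are log2(Cy3/Cy5), so that 0 means as much of the RNA in the tissue as in the reference and 1 unit is a doubling. The levels of the 2 genes cannot be set against each other, because each is relative to that gene's own amount in the reference. A spot counts as measured in the tissue when the scanner software marked its Cy3 signal as well above background.

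Nmnat2 was high in both brain tissues, intermediate in the eyes and lower elsewhere. Its log2 ratio was 4.72 and 4.46 on the cerebellum arrays and 4.39 and 4.45 on the cortex arrays. It was 1.60 and 2.06 in the eyes. The lung followed with 0.07 and 0.23. Every array of brain and eye was thus above every array of the other tissues, and the lung was the only one of those with as much Nmnat2 as the reference.

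The skin arrays read -1.45 and -1.55 for Nmnat2, the fat arrays -1.72 and -1.75 and the bladder arrays -1.83 and -1.89. Large intestine (-1.61 and -2.18), bone (-2.62 and -1.40), stomach (-2.10 and -2.41) and small intestine (-2.64 and -2.21) spread more widely. In the order of their means, each tissue from bladder to stomach overlapped the next one, and small intestine did not overlap liver. Liver (-3.09 and -2.90), heart (-3.34 and -3.25), muscle (-3.41 and -3.44) and kidney (-3.69 and -3.95) stood lowest, and these 4 did not overlap one another. The Nmnat2 spot was well above background on 28 of 30 arrays, the exceptions being 1 heart array and 1 kidney array.

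Tunar was either clearly present or at the limit of detection. Its log2 ratio was 5.51 and 5.58 in cerebellum, 4.27 and 4.66 in the eyes and 4.31 and 4.02 in the cortex. On the other 24 arrays it lay between -1.22 and -0.17. The arrays of cerebellum were above all others, and those of eyes and cortex overlapped. The lowest mean of brain and eye was 4.16 (cortex) and the highest of the others -0.49 (bone). The Tunar spot was well above background on all 6 brain and eye arrays, but on only 1 of the 24 others, a skin array.

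**Figure D1:**
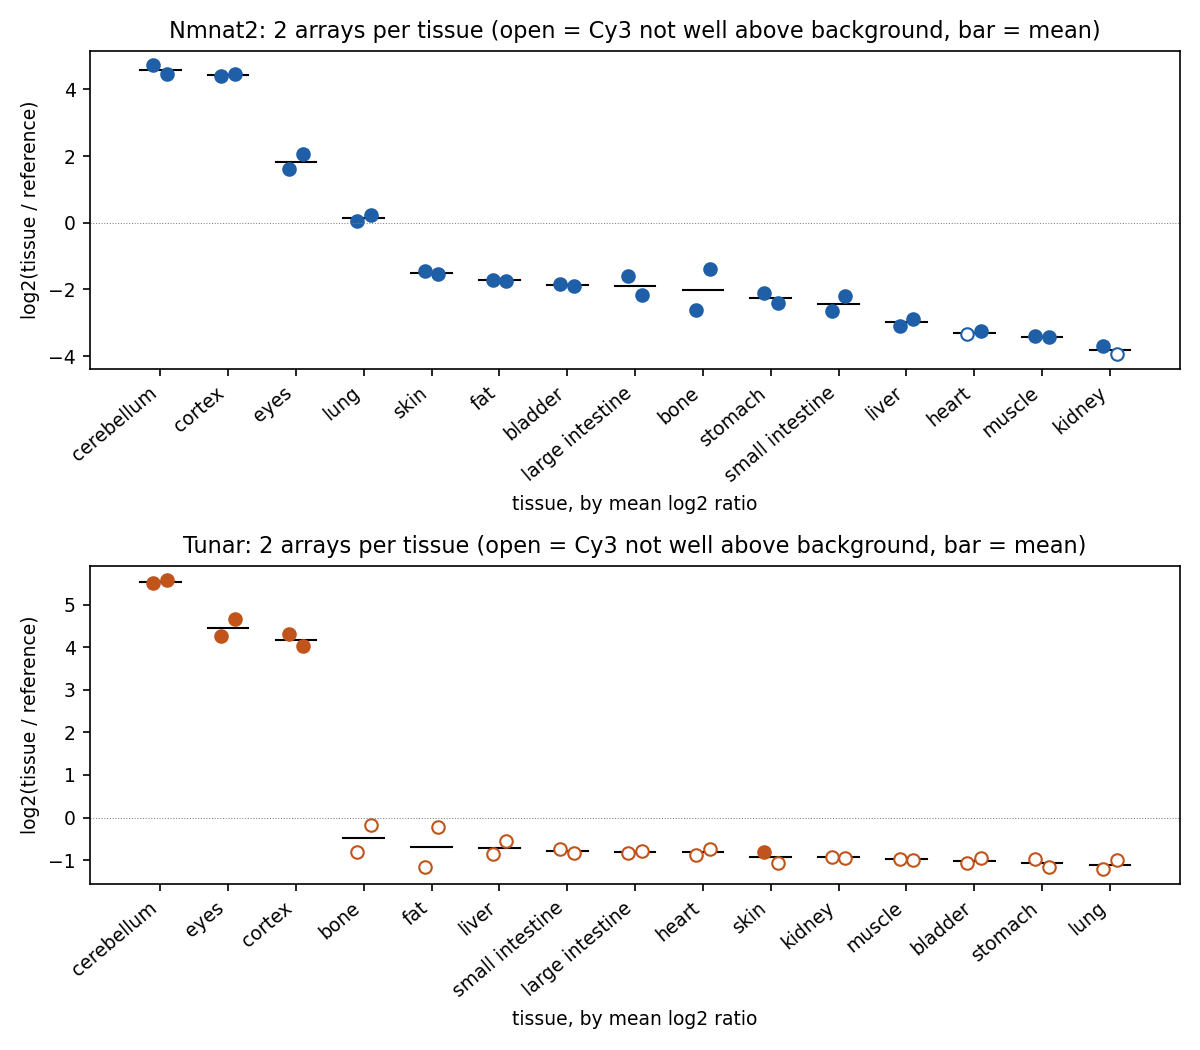
Log2 ratio of tissue over reference for Nmnat2 (top) and Tunar (bottom) by tissue, in the order of the tissue means. Each point is an array, open where the Cy3 signal was not well above background, and the bar is the mean of 2 arrays. Nmnat2 falls in steps from brain to eyes (mean 1.83), lung (0.15) and the rest, whereas all Tunar arrays outside brain and eye lie between -1.22 and -0.17.

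The raw signals show how far these values were from the detection limit. The Cy3 signal of Nmnat2 was 34522 and 26717 scanner units in cerebellum, 27725 and 31429 in cortex, 3730 and 5354 in the eyes and 1902 and 1099 in lung. It was 92.7 and 90.6 in kidney and 81.2 and 84.1 in heart. The Cy3 signal of Tunar was 12365 and 10821 in cerebellum and 3387 and 3021 in cortex. It was 2273 and 3713 in the eyes. On the other 24 arrays it stayed between 57.4 and 77.8 scanner units. No spot of the array was saturated in these data.

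**Figure D2:**
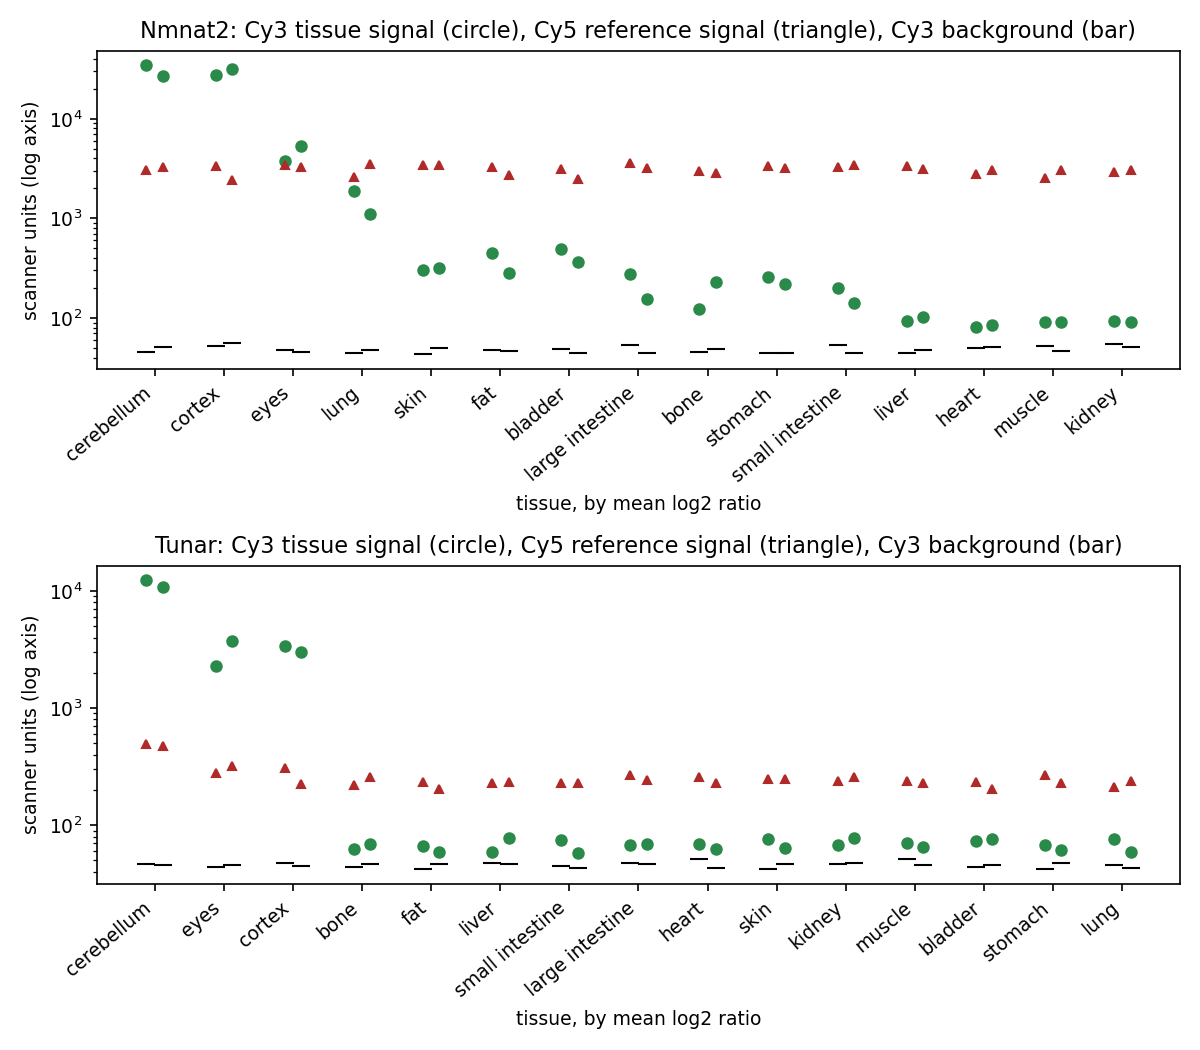
Mean spot signal in scanner units on a log axis for Nmnat2 (top) and Tunar (bottom) by tissue. Circles are the Cy3 tissue signal, triangles the Cy5 reference signal and bars the local Cy3 background, 1 of each per array. The Cy5 signal of Nmnat2 is level across tissues, whereas that of Tunar is highest on the cerebellum arrays (489 and 470).

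Cortex and eyes were compared with the 12 non-neural tissues in a linear model with 1 coefficient per tissue (limma, p-values adjusted by Benjamini and Hochberg over 21019 probes). A probe was called when its adjusted p was under 0.05 and its log2 difference at least 2. Both genes rose in both tissues. Nmnat2 was 6.67 log2 units higher in cortex than in the mean of the 12 tissues (SE 0.21, adjusted p = 5.1e-15), which is 102-fold. Tunar was 5.03 units higher in cortex (SE 0.18, adjusted p = 2.8e-14), which is 32.6-fold. In that comparison 7.95% of all probes were called higher. In the eyes Nmnat2 was 4.09 units higher (SE 0.21, adjusted p = 7.4e-12) and Tunar 5.33 units higher (SE 0.18, adjusted p = 1.3e-14), beside 6.43% of all probes. Lower calls made up 5.12% of all probes in cortex and 1.45% in the eyes. The share of calls that were higher, 60.8% in cortex, was 78.8% when the arrays were only centred on their medians, and in the eyes it was 81.6%, and 67.5% with the software's processed signals. The signs of Nmnat2 and Tunar held in each.

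For Tunar the fold against tissues at background is a lower bound. It was computed on the Cy3 channel of the normalised arrays, which is open to dye bias since the dyes were never exchanged. Over the 11 tissues without a measured Tunar spot, cortex was at least 29.9-fold higher and the eyes at least 35.9-fold higher. By tissue the bound for cortex ran from 22.6-fold (against bone) to 35.6-fold (against bladder). These bounds hold for this scaling only. With quantile-normalised Cy3 levels the differences from the 12 tissues were smaller, 4.60 log2 units in cortex and 4.90 in the eyes. They were larger with the software's processed signals, 7.78 and 7.84, and with the values of the authors, 7.68 and 7.75.

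The arrays were scanned on 5 days, and cortex and eyes shared days with only 5 of the non-neural tissues, namely bladder, kidney, liver, heart and lung. Against those 5, with the scan day as a block, Nmnat2 was 6.80 units higher in cortex and 4.19 in the eyes, and Tunar 5.18 and 5.36 units. Within the first scan day, on which 1 cortex array was scanned, Nmnat2 was 6.73 units and Tunar 5.20 units higher in cortex, and in the eyes the differences were 4.18 and 5.36. On the second day the other cortex array can be set only against 1 lung array. Nmnat2 was there 4.38 units higher and Tunar 5.24.

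The 2 genes took different positions between cortex and eyes. Nmnat2 was 2.59 log2 units higher in cortex than in the eyes (SE 0.28, limma adjusted p = 6.7e-07), a 6.01-fold difference. In this comparison, with calls at a log2 difference of at least 1, 10.3% of all probes were called higher in cortex and 12.6% lower. The share of calls that were higher was 45.0%, and 61.9% with median centring. Tunar differed by -0.30 units (SE 0.24, adjusted p = 0.39), and its 95% interval ran from -0.81 to 0.20. Whether the gap between the genes exceeds the error was not tested. Within the first scan day, the only one to hold both tissues, the differences were 2.56 for Nmnat2 and -0.16 for Tunar.

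The labels of eyes and cerebellum were checked against markers that had a named probe. Of photoreceptor and lens genes 5 had a probe, Pdc, Crygd, Sag, Rp1 and Crx, and all rose in the eyes over the 12 tissues, by 3.85 to 7.09 log2 units. None was called in cortex or cerebellum. En1, a transcription factor of midbrain and cerebellum, was 2.81 units higher in cerebellum. Its linear ratio was 1.47 and 1.74 on the cerebellum arrays, but 1 muscle array read higher, at 1.97, and the other 0.35, so En1 alone does not set cerebellum apart. The summed linear ratio of 5 neuron markers (Map2, Rims1, Syt2, Kif1a and Scg2) lay between 265 and 332 on the cortex arrays, between 304 and 306 on the cerebellum arrays and between 284 and 328 on the eye arrays. It was thus as high in the eyes as in brain. The sum rests mostly on Scg2 and Kif1a, which were not called between cortex and eyes, while Map2 and Rims1 were 1.47 and 1.43 units higher in cortex. Syt2 was not well above background on either eye array.

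Among the 12 non-neural tissues, Nmnat2 differed, and Tunar passed the test only under some settings. The F-test over the 12 tissues gave F = 28.7 for Nmnat2 (limma adjusted p = 2.1e-08). For Tunar it gave F = 1.13 (adjusted p = 0.41), but F = 2.81 (adjusted p = 0.032) without fat replicate 1 and F = 2.48 (adjusted p = 0.049) without background correction. The Tunar spot was well above background on only 1 of these arrays, so its F values compare background readings and say little on its RNA. Since 84.4% of all probes passed this F-test, passing it does not set Nmnat2 apart.

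Lung carried the most Nmnat2 of the 12. Its mean was 2.62 log2 units above the mean of the other 11 (SE 0.21, limma adjusted p = 1.2e-08), which is 6.15-fold, in both arrays. With calls at a log2 difference of at least 1, 11.9% of all probes were called higher in lung and 7.54% lower. Centring on medians moved the share of higher calls in lung from 61.2% to 80.9%. With the scan day as a block and only the tissues scanned on the same days, the lung difference was 3.16 units. Between the replicates of the tissues the correlation over probes was lowest for fat (0.671), large intestine (0.798) and bone (0.848). Without these 3 tissues, an analysis chosen after seeing the data, the lung difference was 2.84 units. Tunar differed by -0.27 in lung (adjusted p = 0.24), but its spot was not well above background on either lung array, so this compares background readings.

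Neuron markers were compared across the same tissues. The summed linear ratio of the 5 neuron markers was 5.68 and 6.11 on the lung arrays. It was higher in stomach (35.8 to 45.3), small intestine (64.1 to 78.6), large intestine (19.8 to 95.5) and bladder (16.4 to 17.1), all with less Nmnat2 than lung. It was lower on every array of the other 7 non-neural tissues, from 3.86 in kidney to 5.62 in fat, which also had less Nmnat2 than lung. The part of neuron content in the lung level was not tested. In lung 3 of the 5 markers were not well above background on either array. Kif1a, a kinesin that carries synaptic vesicle precursors, was 1.21 units higher in lung than in the other 11 tissues, and Scg2, a secretory granule protein, 1.11 units lower. Ptprc, the common antigen of leukocytes, was 2.32 units higher (adjusted p = 3.1e-06), and its part in the Nmnat2 level was not tested.

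Nmnat2 was lower in kidney, muscle and heart than in the other non-neural tissues. The differences were -1.71 in kidney (limma adjusted p = 2.4e-06), -1.28 in muscle (adjusted p = 4.4e-05) and -1.13 in heart (adjusted p = 0.00023), each with SE 0.21. Both kidney arrays were on 1 slide, and so were both heart arrays. With the slide as a random block in limma, the SE was 0.31 in kidney (adjusted p = 0.00042) and in heart (adjusted p = 0.011). In muscle the SE was then 0.22 (adjusted p = 0.00017). Of all probes 9.14% were called lower in kidney, 15.7% in muscle and 9.12% in heart. Since 1 kidney array and 1 heart array were not well above background, these sizes depend on how faint spots are treated, and with the software's processed signals they were -2.57, -1.99 and -2.25. Skin (0.82 units, adjusted p = 0.0042), fat (0.57, adjusted p = 0.044) and liver (-0.80, adjusted p = 0.0035) passed the p threshold but not the log2 difference of 1. The other 5 tissues passed neither. Probes called in either direction made up 15.1% in skin, 11.3% in fat, 24% in liver, 13.9% in bladder, 19.9% in large intestine, 15.5% in bone, 19% in small intestine and 13.7% in stomach. No tissue was called for Tunar by limma, and at an unadjusted p under 0.05 there was 1, bone (0.41). Since 23 of the 24 arrays were not well above background for Tunar, this compares background readings and says little on its RNA there.

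**Figure D3:**
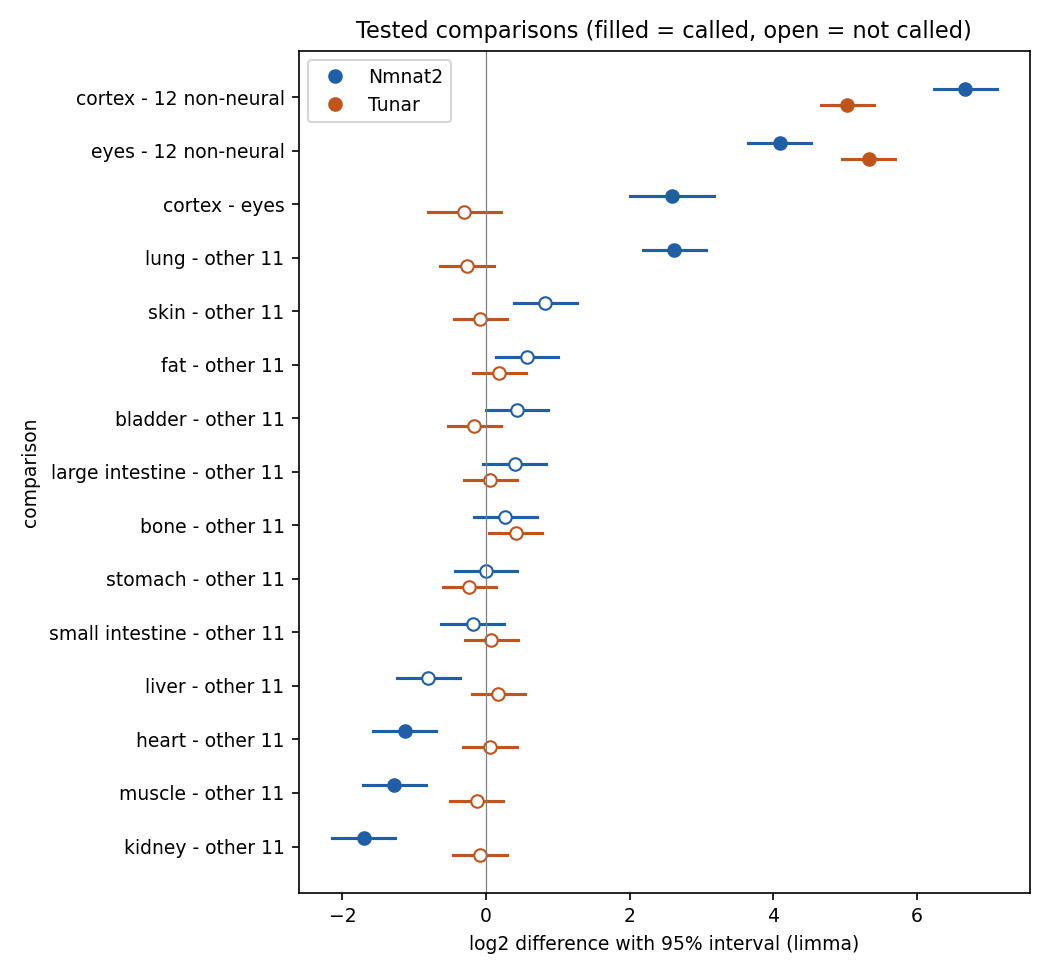
Log2 differences of Nmnat2 and Tunar in the tested comparisons, with 95% intervals from the model. Filled points were called and open points were not. Nmnat2 is higher in lung (2.62) and lower in heart, muscle and kidney (-1.13 to -1.71), whereas every Tunar interval among the non-neural tissues lies between -0.64 and 0.78, on spots mostly not well above background.

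The cerebellum levels, which chose the genes, are given without a test. For Nmnat2 the rule was met narrowly, since the lower cerebellum array (4.46) and the higher cortex array (4.45) were 0.0082 log2 units apart and the means 0.17 units. That order turned when the arrays were only centred on their medians (-0.08). Tunar in cerebellum was 1.38 units above cortex and 1.08 units above the eyes. The reference channel of Tunar also read higher on the cerebellum arrays (8.22 and 8.15 log2 units) than on all others (7.40 to 7.78), and with the Cy3 level alone Tunar in cerebellum was 2.26 units above cortex and 1.97 above the eyes. The part of the higher reference reading in these differences was not tested.

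Expressed as shares of the linear ratio summed over the 15 tissue means, cerebellum held 46.0% of Nmnat2, cortex 40.8%, eyes 6.79% and lung 2.11%. For Tunar cerebellum held 50.1%, eyes 23.6% and cortex 19.2%, and every other tissue at most 0.76%, an upper limit where the spot was not well above background. Tissue specificity can be expressed as information in bits, which is 0 when all tissues are equal and reaches 3.91 when only 1 of 15 tissues holds the RNA. Nmnat2 had 2.15 bits and Tunar 1.93, beside a median of 0.16 over all tested probes. Since the genes were chosen by this tissue pattern, the values only describe them.

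**Figure D4:**
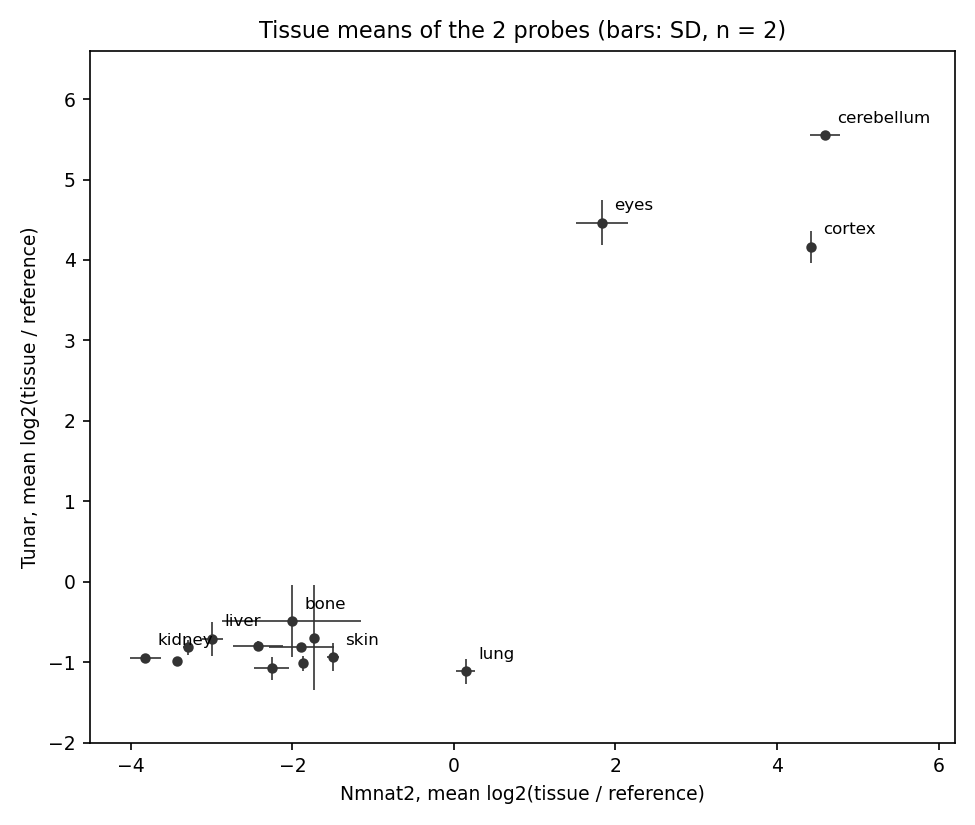
Tissue means of log2(tissue/reference) of Nmnat2 (x axis) and Tunar (y axis), with bars for the SD of 2 arrays. Cerebellum, cortex and eyes are apart on both axes, and lung is apart from the other non-neural tissues on the Nmnat2 axis only.

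Over the 15 tissue means the Pearson r between the 2 genes was 0.91, and over the 12 non-neural means, where Tunar was at background, it was -0.20. These are descriptions, over points that share the reference RNA. Of 21018 other probes, 345 followed Nmnat2 more closely than Tunar did. The probes with a symbol and the highest r with Nmnat2 were Septin3 (r = 0.96), Ccdc184 (0.94), Map3k12 (0.94), 5330430C04Rik (0.94) and A730060N03Rik (0.94). Septin3 is a neuronal septin, and Map3k12 encodes the kinase DLK, which signals axon injury. None of these 5 was as far up in lung as Nmnat2, with differences from the other 11 tissues of 0.27 to 0.39 against 2.62. The highest r with Tunar were those of Rgs8 (0.99), Mir124a-1hg (0.99), Smim18 (0.99), Fam135b (0.99) and 2810037O22Rik (0.98). Rgs8 is a regulator of G protein signalling known from Purkinje cells, and Mir124a-1hg is a host transcript of the neuronal microRNA miR-124. Their differences between eyes and the 12 tissues were 2.77 to 7.28 units.

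Genes of the same pathways were looked at from lists, as far as their probes had a symbol. The lists were chosen with earlier results of these data known, so their counts only describe them. Of NAD metabolism 6 genes had a named probe, and Nmnat1 and Nmnat3 were not among them. No gene of this list was called by limma in cerebellum, cortex or eyes, although 4 of 6 had an adjusted p under 0.05 in cortex. With 7.04%, 7.95% and 6.43% of all probes called higher in these tissues, no call among 6 genes is near the background. Nadk, which phosphorylates NAD, was -1.79 in cortex against the 12 tissues, Afmid of the kynurenine pathway -1.68 and Aox1, the aldehyde oxidase, -1.47, all short of the log2 difference of 2. Sirt3, the mitochondrial NAD-dependent deacetylase, was at 1.03. The median of the list was -0.86 in cortex, beside -0.11 over all probes. In lung, where Nmnat2 was up, Aox1 rose by 1.58 units, and Sirt3 and Afmid fell by 1.01 and by 1.23. Among all probes 11.9% were called higher in lung and 7.54% lower.

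Of the genes known for axon survival and degeneration 6 were measured. Map3k12 rose by 2.64 log2 units in cerebellum and by 2.40 in cortex, and it was at 1.12 in the eyes, below the threshold. Zdhhc17, a palmitoyl transferase that acts on NMNAT2, rose by 2.41 in cerebellum, 2.38 in cortex and 2.31 in the eyes (limma adjusted p = 3.4e-07). Fbxo45 and Skp1, parts of the ubiquitin ligase that turns over NMNAT2, were at 0.69 and 0.61 in cortex. Creb1, a transcription factor that acts on Nmnat2, was at 0.61 and Map2k7, a kinase downstream of DLK, at 0.29. None of these 4 was called in brain or eyes. Of all probes 7.04% were called higher in cerebellum, 7.95% in cortex and 6.43% in the eyes. Lower calls made up 5.37%, 5.12% and 1.45%. None of the 6 was called in lung, beside 11.9% of all probes called higher and 7.54% lower. Counts of no call among so few genes are near these backgrounds. The list's median was 0.65 in cortex, beside -0.11 over all probes, and 2 of 6 were called higher, beside 7.95%.

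All 3 measured partners of Tunar in ES cells missed the log2 threshold of 2, while 2 of them, Ptbp1 and Hnrnpk, had an adjusted p under 0.05 (limma) in cortex. With 7.95% of all probes called higher and 5.12% lower in cortex, no call among 3 is near the background. Ptbp1, a splicing repressor that gives way to its relative Ptbp2 in neurons, was -1.90 in cortex, -1.47 in cerebellum and -1.03 in the eyes. Hnrnpk was at 1.07, 1.23 and 1.15 and Ncl, nucleolin, at -0.20, 0.27 and 0.01 in the same order.

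Of the neuronal list, 28 of 29 probes passed the filter on faint spots. The list was chosen with earlier results of these data known, so its counts are a description and no independent evidence. Called higher were 16 in cortex (median 2.78 log2 units), 12 in cerebellum (median 1.74) and 8 in the eyes (median 0.85), and none was called lower. Among all probes 7.95% were higher in cortex, 7.04% in cerebellum and 6.43% in the eyes, and 5.37% were lower in cerebellum, with medians of -0.11, -0.11 and -0.07. The counts depended on the processing. With the Cy3 level alone 5 were called in the eyes, and with the values of the authors there were 12 in the eyes, 18 in cerebellum and 23 in cortex. Scg2 (6.52 in cortex, 6.74 in the eyes) and Kif1a (5.92 and 5.17) had differences of the size of those of Nmnat2 and Tunar. Dpp10, a subunit of A-type potassium channels, went from 4.67 in cortex to 2.18 in the eyes. Against the eyes 14 of the 28 were called higher in cortex and none lower, beside 10.3% and 12.6% of all probes. In lung 3 were called higher, Adcy8 (3.92), Kif1a (1.21) and Epha4 (1.18), and 1 lower, Scg2, a share near the 11.9% and 7.54% of all probes. Adcy8 is a calcium-stimulated adenylyl cyclase. Its probe also varied between the arrays of fat (SD 3.80).

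**Figure D5:**
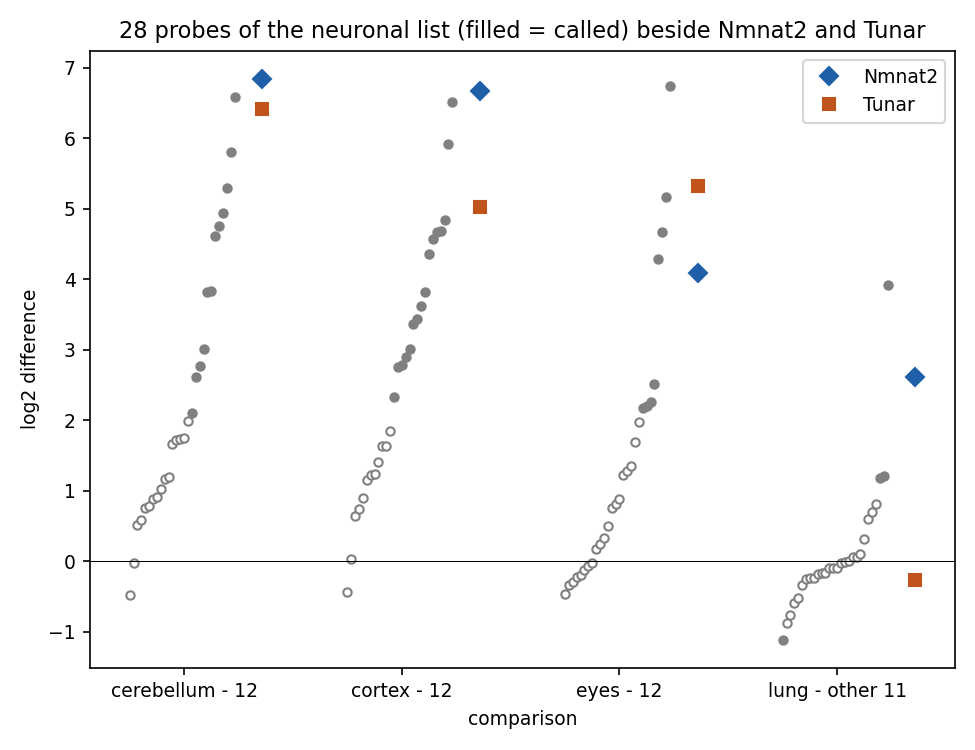
Log2 differences of the 28 tested probes of the neuronal list (circles, filled where called, sorted within each comparison) beside Nmnat2 (diamond) and Tunar (square). In cortex 16 circles are filled and in lung 4, and the diamond at 2.62 stands above all but 1 circle in lung. The cerebellum values of Nmnat2 and Tunar chose these genes and were not tested.

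Genes that lie beside Nmnat2 and Tunar on the chromosome were looked at as well. Within 500 kb of Nmnat2 the gene table has 21 genes, of which 11 had a probe with a symbol. Shcbp1l was at 1.67 in cortex against the 12 tissues and rose by 2.10 in cerebellum. None of the 11 was called in cortex or in the eyes, which is near the background of 7.95% and 6.43% of all probes called higher and 5.12% and 1.45% lower. In lung Colgalt2 was called higher (1.93). Within 500 kb of Tunar 3 of 29 genes had such a probe, Gskip, Atg2b and Tcl1b3, and none was called in brain, eyes or lung. Of all probes 7.04% were called higher and 5.37% lower in cerebellum, and 11.9% and 7.54% in lung. No call among 3 is near these backgrounds. Gskip was at 0.92 in cortex.

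The promoter windows of RefSeq (GRCm38.p6) hold 250 bases before and 50 after a gene start. Tunar has 2 windows on the plus strand and Nmnat2 1, at chr1:152954851-152955150. The Tunar windows are shown because this transcript was the one near background outside brain and eye. CG dinucleotides, the sites of DNA methylation, are in capitals.
Tunar, chr12:105336344-105336643: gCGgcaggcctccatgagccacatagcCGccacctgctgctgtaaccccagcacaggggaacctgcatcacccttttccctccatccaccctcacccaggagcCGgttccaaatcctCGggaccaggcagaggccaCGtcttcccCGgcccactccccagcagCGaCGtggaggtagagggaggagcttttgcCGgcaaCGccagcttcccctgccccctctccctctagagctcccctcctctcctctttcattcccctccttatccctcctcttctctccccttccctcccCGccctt
Tunar, chr12:105336743-105337042: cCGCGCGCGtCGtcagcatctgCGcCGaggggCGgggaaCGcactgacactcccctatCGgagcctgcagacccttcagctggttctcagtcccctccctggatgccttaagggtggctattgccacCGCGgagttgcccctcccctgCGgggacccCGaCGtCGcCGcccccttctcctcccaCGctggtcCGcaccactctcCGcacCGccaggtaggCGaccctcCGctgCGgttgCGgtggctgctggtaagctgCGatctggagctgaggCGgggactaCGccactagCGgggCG
The first Tunar window has 11 CG dinucleotides and the second 30, and the Nmnat2 window has 17. The median over 32851 windows is 7, and 88.3% of the windows have fewer than the second Tunar window. None of 4 motifs was found on either strand of the 3 windows. These were TTCAGCACC and GGACAGCGC, the left and right parts of the RE1 element bound by the neuronal repressor REST, the CRE site TGACGTCA and the TATA box letters TATAAA. Of all windows 0.37%, 0.41%, 1.79% and 13.6% hold them. No match says only that these letters are not in these windows.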

How the data were processed

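RNA of 15 adult mouse tissues was measured on 30 two-colour Agilent arrays (tissue in Cy3, reference in Cy5, no dye swap). Per the file headers the authors extracted spots with Agilent Feature Extraction; the deposited spot files give the mean signal and background of each channel as an intensity, and other columns hold flags for outliers, saturation and signal well above background. The authors' deposited value table is on a log10 scale for 25030 probes and served as an alternative. Set against the spot files it held a Cy3 level adjusted for the reference; how it was centred was not given in the sources used here (column medians 2.50 to 2.65), and it was converted to log2.

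Background was corrected by normexp (offset 50) over all spots, control spots and 475 outlier spots were left out, and each array was normalised by loess. Tested were the 21019 probes (84.0%) of the authors' table that had, for 1 tissue or more, a Cy3 spot well above background in both replicates. Between 53.9% and 76.8% of probes per array were well above background in Cy3, and the number of arrays limits the precision. Symbols came from the study's probe lists for 5049 tested probes (24.0%), updated through the gene table.

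The model was a limma fit (version 3.58.1, R version 4.3.3; 15 residual and 2.95 prior degrees of freedom) with 1 coefficient per tissue, two-sided, with Benjamini-Hochberg adjustment within each comparison, and the fit was tested on simulated data. There were 16 tests per gene. Named genes were the pair, list members, the 5 most alike probes of each, and neighbours within 500 kb. The genes and lists were chosen with earlier results of these data known. Alternatives were processed signals, no background correction, median centring, the Cy3 level alone, the authors' table, other probe filters, blocks for slide, scan day and replicate number, and leaving out each array. For single non-neural tissues, and for leaving out fat, bone and large intestine, they were added after seeing the data. Probe positions on the genome were not used here, and a few list and neighbouring genes are not reported here.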

Additional observations from a re-analysis of the deposited data

Results flagged for a closer look

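The effect of tissue on Nmnat2 was not the same in the nervous tissues compared. Against the same 12 non-neural tissues Nmnat2 was 6.67 log2 units higher in cortex and 4.09 in the eyes, and the test of the difference itself gave 2.59 units (limma adjusted p = 6.7e-07), with both cortex arrays above both eye arrays. For Tunar the same test gave -0.30 units (adjusted p = 0.39). Each tissue has 2 arrays, too few to look for outlying arrays within a tissue.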

How the results depend on the processing

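For Nmnat2 the direction and the call held in every alternative with a test for cortex, eyes, cortex against eyes, the F-test, lung, kidney, heart and muscle. The other 8 single tissues were run under no alternative. The lung difference ran from 2.54 to 3.34, the cortex-eyes difference from 2.36 to 2.81. Tunar between cortex and eyes was called in none (-0.50 to 0.02). The F-test of Tunar among the non-neural tissues compares mostly background readings. It passed without background correction (F = 2.48, adjusted p = 0.049) and without fat replicate 1 (F = 2.81, adjusted p = 0.032). The cause was not tested. Within scan day 2 Nmnat2 in cortex moved to 4.38, since its only non-neural array is lung.

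With processed signals and with the authors' table Nmnat2 in cerebellum minus the 12 tissues was 7.45 and 7.45, Tunar 8.87 and 8.77, Tunar minus cortex 1.09 and 1.09, the information of Tunar 2.29 and 2.28 bits and r between the genes 0.856 and 0.859. Median centring gave 5.93 and 1.13 for Tunar, 1.78 bits and r = 0.909. The Cy3 level alone gave 6.86 and 2.26, and 1.97 against eyes, 2.19 bits, r = 0.916 and 5 neuronal probes in the eyes. Without background correction there were 1.97 bits and r = 0.904. The cause was not tested.

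Leaving out 1 array at a time, Tunar information ran from 1.92 to 1.94 bits, r from 0.903 to 0.908 and the F of Tunar from 0.78 to 2.81. Calls in cortex and eyes against the 12 tissues rose from 2748 and 1655 to 4345 and 3108 with processed signals and to 4254 and 2833 with the authors' table, and F-test calls from 17733 of 21019 (84.4%) to 28169 of 34637 with all probes of the array. The share of calls that were higher moved from 60.8% to 78.8% in cortex, from 61.2% to 80.9% in lung, from 51.7% to 68.1% in kidney and from 45.0% to 61.9% in cortex against eyes with median centring, and in the eyes from 81.6% to 67.5% with processed signals and 69.3% with the authors' table.

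With the replicate block, Nmnat2 in cortex was 6.67 and Tunar 5.03, and no call changed. Whether the numbers pair the samples is not known. The deviations of same-numbered arrays correlated at over 0.1 in 33 of 105 pairs of tissues (median 0.05, highest 0.34). No value that pairing would give was at hand to set beside this. Over all tissues, slide and scan day as fixed blocks could be fitted only for cortex against eyes (Nmnat2 2.78 and 2.61). Against the tissues scanned on the same days, an alternative added after seeing the data, the scan day block gave 6.80 in cortex, 4.19 in the eyes, 3.16 in lung, -1.82 in kidney and -1.17 in heart. Faint spots limit Tunar outside brain and eye and Nmnat2 in heart and kidney.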
